A study of Homo sapiens with 92 samples.

Results

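These results describe new RNA in cells treated with a degrader of NIPBL, 30 min after release from a mitotic block, the earliest time sampled after release. The 6 libraries were chosen by their titles, as the dTAGV-1 and DMSO libraries of clone NIPBL-D7 at 30 min with 15 min of label and with the drug given from the block onward, out of 92 libraries in all. New RNA was measured by SLAM-seq, in which cells take up 4-thiouridine (4sU), the base is alkylated with iodoacetamide, and reads from labelled RNA then carry T-to-C conversions. The value per gene is its number of reads with a conversion, called converted reads here.

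NIPBL loads the ring-shaped cohesin complex onto chromosomes and drives the extrusion of DNA loops, by which promoters and distant enhancers come into contact. During mitosis cohesin leaves the chromosome arms, condensin folds them, and most transcription stops. As cells leave mitosis, RNA polymerase II returns to genes and cohesin is loaded again, and the comparison asks whether the earliest new transcripts need NIPBL.

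All 6 libraries came from hTERT RPE-1, a telomerase-immortalised human retinal pigment epithelial line, and from 1 clone, NIPBL-D7, whose genotype is given as mGreenLantern-P2A-FKBP12(F36V)-NIPBL. The compound dTAGV-1 recruits an FKBP12(F36V)-tagged protein to the VHL ubiquitin ligase for degradation, and DMSO is the vehicle. In both arms cells were synchronised with 2 mM thymidine, given in 2 blocks, then held for 120 min in nocodazole at 20 ng/ml together with dTAGV-1 or DMSO, shaken off and released for 30 min in medium with the same agent. 4sU at 100 µM was present for the last 15 min. The dTAGV-1 arm (dTAG below) held replicates 1, 2 and 3, and the DMSO arm held replicates 2, 3 and 4. For comparison the same series at 0 min (4 dTAG and 3 DMSO libraries) and at 60, 90 and 120 min was used, as were the 3 dTAG and 3 DMSO libraries at 30 min of a release series, in which the drug was given only after release. The labels do not say whether replicates were separate cultures, so p-values measure the spread between these libraries, which may be technical. Because dTAGV-1 removes protein and not transcript, the level of NIPBL RNA does not report on the depletion.

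The dTAG libraries held 1784147, 1870306 and 1542349 converted reads, and the DMSO libraries 2466720, 1283315 and 1689014. Converted reads made up 2.50, 2.63 and 3.05% of all reads in dTAG replicates 1, 2 and 3, against 2.77, 2.90 and 2.62% in DMSO replicates 2, 3 and 4. The means were 2.73 ± 0.287% and 2.76 ± 0.140% (SD, n = 3 each), and a two-sided exact permutation test gave p = 1, where the smallest p that 3 against 3 libraries allow is 0.1. At 0 min the share averaged 2.66 ± 0.237% in 4 dTAG libraries and 2.77 ± 0.473% in 3 DMSO libraries, and these ranges overlap those at 30 min in both arms. At 60 min it averaged 4.21 ± 0.376% in 4 dTAG libraries and 3.95 ± 0.400% in 4 DMSO libraries. In the release series it averaged at 30 min 4.84 ± 0.816% in 3 dTAG libraries and 4.76 ± 0.565% in 3 DMSO libraries.

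Of 16 markers fixed for RPE-1 and epithelium, 6 exceeded 10 CPM (on the counts-per-million scale, here over all reads) in each of the 6 libraries. VIM averaged 1811 and KRT8 212 in dTAG, against 1884 and 192 in DMSO, and the eye-field factor PAX6 averaged 72.8 in dTAG and 62.2 in DMSO. The differentiated pigment epithelium genes RPE65, BEST1 and RLBP1 stayed under 0.2 on that scale in both arms. The epithelial markers CDH1 and KRT19 were near 0, at 0.11 and 0.091 in dTAG and 0.124 and 0.0831 in DMSO. None of 9 endothelial and blood markers exceeded 10, and their summed level was 2.21 to 4.67 in dTAG and 2.26 to 5.18 in DMSO. Of 12 fibroblast and smooth muscle markers 3 exceeded 10, and the sum was 177 to 282 in dTAG and 171 to 246 in DMSO. Of 14 cardiomyocyte and neuron markers 2 exceeded 10, SYT1 at 248.8 in dTAG and 248.6 in DMSO and MAP2 at 49.2 in dTAG and 47.6 in DMSO, and the sum was 252 to 373 in dTAG and 279 to 323 in DMSO.

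Replicate 3 stood apart in both arms for some lists of genes, but over all genes only in dTAG. The measure was a chi-squared per degree of freedom on all reads, larger where libraries differ more. It was 38.2 for dTAG replicates 1 and 2, and 109.4 and 89.3 for replicate 3 against them. In DMSO it was 12.4 for replicates 3 and 4, and 110.4 and 81.8 for replicate 2 against them. It was the highest library of its arm, in dTAG and in DMSO alike, for 30 of 34 tested immediate early genes (88.2%) and 17 of 18 inflammatory and NF-kB genes (94.4%), against 20.9% of all 14201 tested genes. It was the lowest of its arm in both arms for 26 of 32 mitotic and cytokinesis genes (81.2%), against 20.1% of all tested genes. Mitochondrial transcripts held 0.453%, 0.309% and 0.884% of all reads in dTAG replicates 1, 2 and 3, against 0.347%, 0.813% and 0.643% in DMSO replicates 2, 3 and 4. A converted read carried on average 1.230, 1.235 and 1.441 converted T in those dTAG libraries, against 1.201, 1.355 and 1.329 in the DMSO libraries. Replicate 3 was thus also the highest of its arm for both measures, and their part in its values was not tested. The summed level of the 34 immediate early genes was 1852, 1706 and 8928 CPM (counts-per-million scale of converted reads after TMM scaling, used from here on) in dTAG replicates 1, 2 and 3, against 2037, 6033 and 3018 CPM in DMSO replicates 2, 3 and 4. At 0 min dTAG replicate 3 reached 6520 CPM and the other dTAG libraries 1340 to 3624 CPM. Results for these genes are therefore also given with both replicate 3 libraries at 30 min left out, a choice made after seeing the data.

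**Figure D1:**
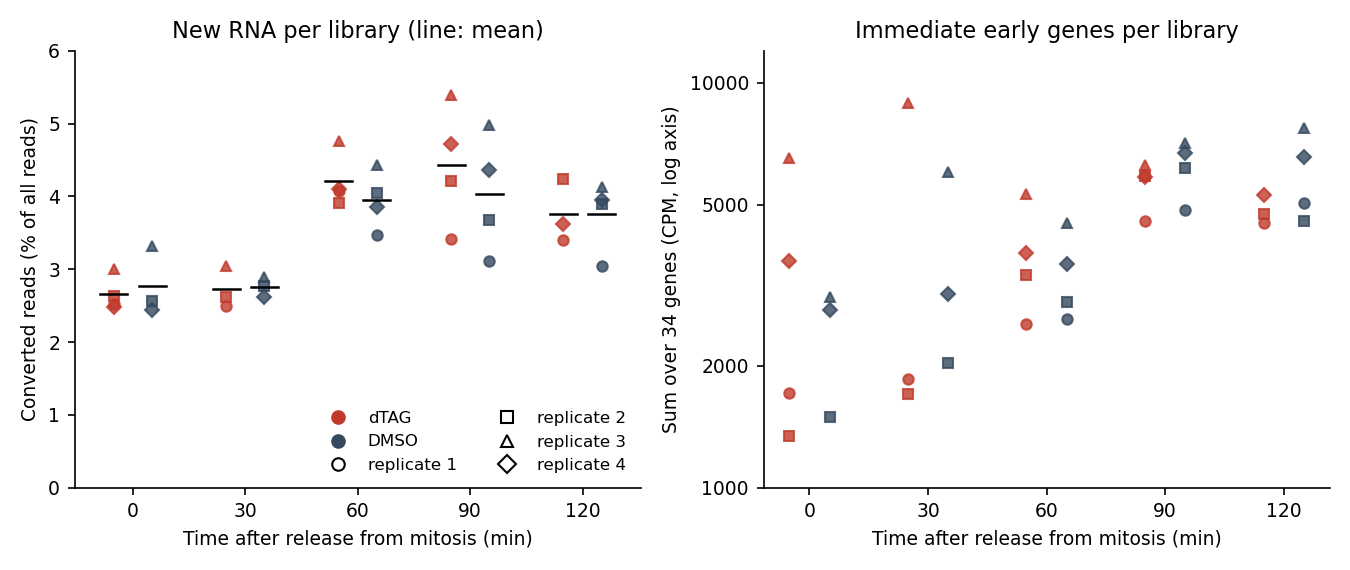
Left, converted reads as a percent of all reads for each library of the mitosis series at 0 to 120 min (points, dTAG red and DMSO dark, one shape per replicate number; lines, group means). Right, the summed level of 34 immediate early genes in CPM on a log axis; at 30 min the replicate 3 libraries lie at 8928 CPM in dTAG and 6033 CPM in DMSO, above the other libraries.

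Converted reads of dTAG cells could not be told from those of DMSO cells at 30 min. No gene passed the test: 0 of 14201 genes were lower (0%) and 0 were higher (0%) in dTAG at an adjusted p under 0.05 in edgeR's quasi-likelihood test with Benjamini-Hochberg adjustment, and the smallest adjusted p was 1. An unadjusted p under 0.05 was reached by 196 genes (1.38%), and DESeq2's own test also called 0 genes. With no difference between arms a share of 0.05 would be reached on average, so the 196 are fewer than that, for a cause that was not tested. With no filter on low counts the test called 7 of 36244 genes, 6 lower and 1 higher, and with both replicate 3 libraries left out it called 0 of 14842. The libraries of the arms did not overlap for 381 genes in which all dTAG values were lower (2.68%) and 383 in which all were higher (2.7%). Libraries correlated as well between arms (r of log2 CPM 0.947 to 0.978 over 9 pairs) as within an arm (0.943 to 0.973 over 6 pairs).

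For most genes with many converted reads the data bound the difference in converted reads. The 95% interval of dTAG over DMSO lay inside a 2-fold change in either direction for 9279 of 14201 genes (65.3%) and inside a 1.5-fold change for 4649 (32.7%). Among genes with a mean log2 CPM of 7 and over it lay inside 2-fold for 97.2%, and between 5 and 7 for 95.3%. Between 3 and 5 the share was 64.3%, and under 3 it was 4.69%, so a change of 2-fold was not excluded for most genes of low level. An interval inside 2-fold does not mean that the test, adjusted over all genes, would have called a 2-fold change. Converted reads include reads converted by error, whose number was not measured. The intervals therefore bound converted reads and not new RNA, for which a 2-fold change was not excluded at any level. In bulk libraries such as these, fewer cells with a transcript and less of it per cell cannot be told apart.

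**Figure D2:**
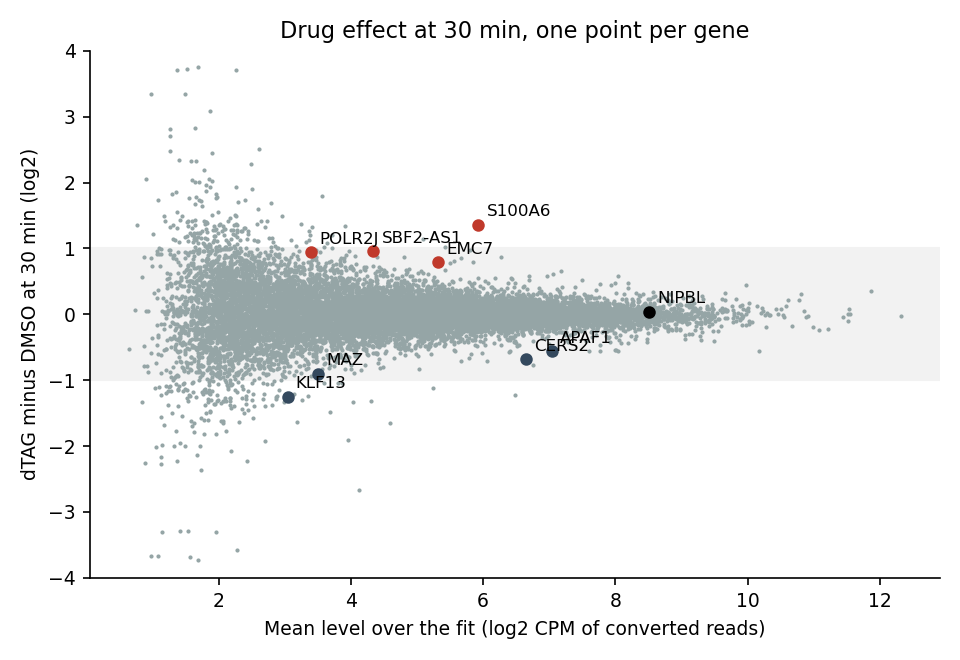
Each point is 1 of 14201 tested genes, with its mean level on the x axis (log2 CPM of converted reads over the fit) and its dTAG minus DMSO difference at 30 min on the y axis (log2); the grey band marks 2-fold in either direction and 7 genes lie outside the axis limits. The spread narrows as the level rises, and none of the labelled genes, lower ones dark blue, higher ones red and NIPBL black, passed the test.

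Among genes whose dTAG values all lay under the DMSO values, CERS2, which encodes a ceramide synthase, had the smallest p at a mean log2 CPM of at least 3. CERS2 (chromosome 1, 150960583 to 150975004, minus strand, hg38) had 91.7, 68.4 and 88.8 CPM in dTAG, against 113, 159.6 and 128 CPM in DMSO. Its difference was -0.68 ± 0.19 (log2, SE), with an unadjusted p of 0.00109 and an adjusted p of 1 in edgeR's test. Its difference was 0.23 at 0 min, 0.08 at 60 min and -0.24 at 120 min. HPS3, a subunit of a complex needed for lysosome-related organelles, had 61.5, 50.8 and 44 CPM in dTAG, against 70.3, 69.2 and 76.2 CPM in DMSO. APAF1, the core of the apoptosome, had 121, 133 and 106 CPM in dTAG, against 192, 159 and 180.4 CPM in DMSO. MAZ, a zinc finger factor that binds G-rich promoters, had 9.51, 11.2 and 7.89 CPM in dTAG, against 15.8, 23.6 and 15.2 CPM in DMSO. In each of these the arms were apart by less than 2-fold, at -0.46 ± 0.15 for HPS3, -0.56 ± 0.19 for APAF1 and -0.90 ± 0.30 for MAZ (log2, SE), with edgeR adjusted p-values of 1. The rule for naming genes also took SLC15A4 (-0.42), CTSC (-0.40), JAG1 (-0.71), MSRB2 (-0.95), ALG12 (-1.21) and KLF13 (-1.25), of which CTSC and JAG1 were called lower at 120 min.

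In the other direction S100A6, a small calcium-binding protein, stood farthest from 0 among the named genes. S100A6 (chromosome 1, 153534599 to 153536244, minus strand, hg38) had 85.6, 126 and 188 CPM in dTAG, against 32.4, 69.2 and 56.2 CPM in DMSO. Its difference was 1.36 ± 0.38 (log2, SE, unadjusted p = 0.00102, edgeR adjusted p = 1). The difference was 0.27 at 0 min, -0.20 at 60 min and -0.93 at 120 min. When converted reads were set against all reads of each gene, S100A6 was the 1 gene called, at 1.36 with an edgeR adjusted p of 0.0225, and with no filter on low counts it was called at 1.37 with an adjusted p of 2.02e-05. Without 1 replicate at a time its adjusted p was 1 each time. SBF2-AS1, a noncoding RNA antisense to SBF2, had 17.9, 17.6 and 16.4 CPM in dTAG, against 7.90, 12.6 and 7.03 CPM in DMSO. Its difference of 0.96 ± 0.28 at 30 min stood beside 0.15 at 0 min and 1.03 at 120 min, where it was called higher. The labels do not say whether reads were counted by strand, so reads of SBF2 and of its antisense RNA cannot be told apart. EMC7, a subunit of the membrane protein insertase of the endoplasmic reticulum, had 76.1, 35.8 and 36.8 CPM in dTAG, against 28.7, 28.3 and 29.3 CPM in DMSO. Its highest value is that of dTAG replicate 1. The remaining named genes were UPRT (0.90), WDR73 (0.65), CLSTN3 (0.63), SEPT10P1 (0.44), POLR2J (0.94), UQCRFS1 (0.43) and GTF2F1 (0.88), all with an edgeR adjusted p of 1.

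The targeted gene and its partners showed no detectable difference in converted reads. NIPBL had 421, 376 and 302 CPM in dTAG, against 420.3, 327 and 319.9 CPM in DMSO, a difference of 0.04 ± 0.23 (log2, SE). Of 18 tested cohesin genes, 0 passed, their median difference was 0.06 against 0.00 over all tested genes, and all 18 had intervals inside 2-fold. The ring subunits SMC1A, SMC3 and RAD21 differed by 0.09, 0.09 and 0.05, and the chromatin-binding subunits STAG1 and STAG2 by 0.13 and 0.14. WAPL, which releases cohesin, differed by -0.07, and MAU2, the partner of NIPBL in loading, by 0.17. The boundary factor CTCF had 81.1, 79.6 and 74.3 CPM in dTAG, against 86.1, 85.7 and 65.6 CPM in DMSO. All 8 condensin subunits also had intervals inside 2-fold, with a median of 0.06 and values from -0.10 for NCAPH2 to 0.12 for NCAPH.

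Of 32 tested mitotic and cytokinesis genes, 0 passed, the median was -0.01, and 31 had intervals inside 2-fold. TOP2A, the topoisomerase that untangles mitotic chromosomes, had 1296, 1257 and 801 CPM in dTAG, against 1199.7, 957 and 1063 CPM in DMSO. CCNB1, the cyclin of the mitotic kinase, had 194, 183 and 176 CPM in dTAG, against 195, 188 and 201 CPM in DMSO. In both arms replicate 3 was the lowest library for these genes, the same libraries in which the immediate early genes were highest. Cytosolic ribosomal protein genes had a median of 0.04 over 75 tested with 72 inside 2-fold, nuclear envelope and pore genes -0.05 over 30 with 30 inside, ribosome biogenesis genes 0.02 over 28 with 26 inside, and transcription and RNA processing genes 0.01 over 27 with 26 inside. Of 32 G1 and S phase genes 0 passed, with a median of 0.07. The licensing genes ORC1 and CDC6 were among its 3 members with dTAG values all above DMSO (9.38% of the list, against 2.7% of all tested genes), at 0.52 ± 0.30 and 0.43 ± 0.29 (log2, SE), and 1 member had dTAG values all under DMSO.

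The remaining lists held 0 called members as well. The median difference was 0.13 over 23 p53 targets, 0.13 over 21 integrated stress and heat shock genes, -0.04 over 20 hypoxia genes, -0.03 over 24 matrix and adhesion genes, 0.03 over 20 YAP and TEAD targets and 0.10 over 24 mesenchymal transcription factors. It was 0.03 over 19 cholesterol synthesis genes, -0.05 over 14 mitochondrial transcripts and 0.24 over 21 replication-dependent histones, of which 2 had intervals inside 2-fold. Over 30 later drug-responsive genes, a list drawn up with later results of this series known, it was -0.07, and 13 had intervals inside 2-fold. With both replicate 3 libraries left out, the median over the mitochondrial transcripts was -0.37, with 13 of 15 tested lower in dTAG, and that over the histones -0.06, with 11 of 21 lower. The median over the 20 hypoxia genes was then -0.19, with 18 lower, and that over the 30 later drug-responsive genes -0.15, with 20 lower, against 7458 of 14842 tested genes, and 0 members were called. Other lists tilted the other way in that setting. Lower in dTAG were 10 of 32 mitotic and cytokinesis genes and 10 of 32 G1 and S phase genes. The same held for 6 of 18 cohesin genes and 2 of 8 condensin subunits, while ribosome biogenesis genes had 14 of 28 lower.

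Among the genes with the most converted reads, AHNAK, a giant scaffold protein, averaged 5823 ± 856 CPM in dTAG and 5932 ± 606 CPM in DMSO (SD, n = 3 each). The fibronectin gene FN1 averaged 3066 ± 449 CPM in dTAG and 3042 ± 168 CPM in DMSO. The nuclear noncoding RNA MALAT1 averaged 3366 ± 226 CPM in dTAG and 3472 ± 277 CPM in DMSO. Their differences were -0.03, 0.01 and -0.04 (log2).

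The immediate early genes, which respond to growth factors and stress without new protein synthesis, varied widely between libraries of 1 arm. Over 34 tested members the median spread within an arm was 1.08 (SD, log2), against 0.303 over all tested genes, and it was 1.14 over 18 inflammatory and NF-kB genes. FOS, an AP-1 subunit, had 121, 81.2 and 903 CPM in dTAG, against 81.5, 613 and 227 CPM in DMSO. EGR1, a zinc finger factor, had 46.4, 75.9 and 481 CPM in dTAG, against 54.9, 274 and 109 CPM in DMSO. The neutrophil chemokine CXCL8 had 25.7, 12.3 and 433 CPM in dTAG, against 20.0, 225 and 69.1 CPM in DMSO. For each of them the high values are the replicate 3 libraries of both arms, DMSO replicate 4 lies between, and the arms overlap. The 250 bases before the RefSeq start of these genes are shown because they moved together across the libraries, with matches to promoter motifs in capitals and both strands searched.
FOS: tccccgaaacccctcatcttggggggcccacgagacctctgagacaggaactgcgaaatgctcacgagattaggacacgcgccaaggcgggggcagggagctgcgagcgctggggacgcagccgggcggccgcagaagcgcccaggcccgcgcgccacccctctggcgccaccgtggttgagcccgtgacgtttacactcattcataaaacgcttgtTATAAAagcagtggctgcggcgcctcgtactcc
EGR1: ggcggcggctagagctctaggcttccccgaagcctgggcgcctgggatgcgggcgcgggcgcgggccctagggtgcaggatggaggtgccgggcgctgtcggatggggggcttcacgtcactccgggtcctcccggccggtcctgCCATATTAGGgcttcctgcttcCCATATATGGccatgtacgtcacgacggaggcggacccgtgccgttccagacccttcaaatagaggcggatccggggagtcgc
CXCL8: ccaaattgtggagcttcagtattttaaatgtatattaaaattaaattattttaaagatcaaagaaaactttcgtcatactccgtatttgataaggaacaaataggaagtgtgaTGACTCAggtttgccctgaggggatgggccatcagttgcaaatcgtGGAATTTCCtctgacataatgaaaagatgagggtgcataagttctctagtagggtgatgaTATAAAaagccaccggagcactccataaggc
The windows lie at chr14:75278578-75278827, chr5:138465229-138465478 and chr4:73740319-73740568, all on the plus strand of GRCh38.p14, and are 5′ to 3′. The EGR1 window holds 2 CArG boxes, the sequence bound by serum response factor. At least 1 such box is held by 1.14% of 27305 RefSeq windows of this length. The CXCL8 window holds the AP-1 motif TGANTCA, held by 6.6% of windows, and the NF-kB sequence GGAATTTCC, held by 0.428%. FOS and CXCL8 hold the TATA box TATAAA, found in 11.1%. A match is a description of the letters and not of a bound site.

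No member of either list passed the drug comparison. Of 34 immediate early genes 0 were called, none had arms that did not overlap, and the median difference was 0.20. FOS differed by 0.27 ± 0.73, FOSB by 0.47 ± 0.71, EGR1 by 0.48 ± 0.70 and ATF3 by 0.20 ± 0.64 (log2, SE), and the 95% interval of FOS ran from -1.21 to 1.76. Only 10 of the 34 had intervals inside 2-fold, and a change of 2-fold was not excluded for the others with these libraries. The median over 18 inflammatory and NF-kB genes was 0.19, with 0 called. NFKBIA, the inhibitor that NF-kB induces, had 15.7, 10.2 and 96.6 CPM in dTAG, against 7.07, 36.2 and 19.9 CPM in DMSO, and MAP3K8, a kinase upstream of ERK, had 12.3, 18.2 and 77.6 CPM in dTAG, against 10.4, 27.5 and 12.3 CPM in DMSO. With both replicate 3 libraries left out, the median over the 34 immediate early genes turned to -0.38, with 33 of 34 lower in dTAG, and that over the 18 inflammatory genes to -0.45, with 14 of 18 lower, against 7458 of 14842 tested genes, and 0 were called, so the direction of both lists rests on these libraries. The libraries then left were dTAG replicates 1 and 2, with immediate early sums of 1852 and 1706 CPM, and DMSO replicates 2 and 4, with 2037 and 3018 CPM. Replicate 4 had no dTAG library at 30 min, and its part in these counts was not tested. Taken by number, the pair of replicate 3 libraries gave a median of 0.52 over the immediate early genes (30 of 34 higher in dTAG). The pair of replicate 2 libraries gave -0.17 (10 of 34 higher in dTAG). Over all tested genes the pairs gave 0.00 and -0.03 in the same order.

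**Figure D3:**
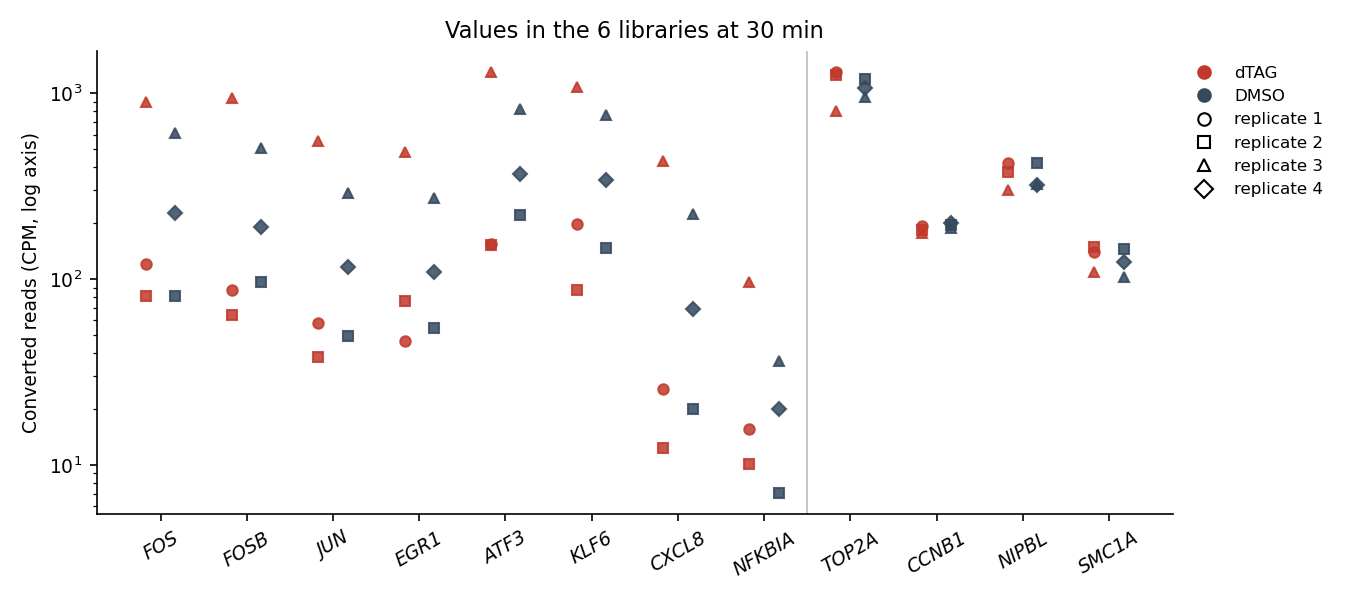
Converted reads in CPM on a log axis for 8 early-response genes (left of the line) and 4 mitotic or cohesin genes (right) in each of the 6 libraries at 30 min, dTAG red and DMSO dark, one shape per replicate number. The replicate 3 libraries are the highest for each early-response gene in both arms, and all libraries lie close together for CCNB1.

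Converted reads as a share of a gene's own reads were taken to show how fresh its RNA is. Reads converted by error were not measured. Over 8950 protein-coding genes with at least 300 reads in each library the median share was 2.32% in dTAG and 2.39% in DMSO at 30 min, and 2.33% and 2.34% at 0 min in the same order. A small group stood far above. Of the reads of ATF3, a stress-induced transcription factor, the converted share was 29.7, 22.4 and 35.9% in dTAG, against 22.3, 32.1 and 29% in DMSO. FOS had 14.6, 14.8 and 17.6% in dTAG, against 11.7, 18.5 and 16.5% in DMSO. CXCL8 had 21, 15 and 39% in dTAG, against 18.8, 37.4 and 28.9% in DMSO. In all 3 the arms overlap. Over pooled libraries the share of FOS was 16.9% in dTAG and 16.5% in DMSO at 30 min, and 2.79% in dTAG and 2.47% in DMSO at 120 min. NEDD9, a focal adhesion scaffold, had 11.1, 9.75 and 32.9% in dTAG, against 15.1, 29.6 and 18.9% in DMSO, and the transcription factor KLF6 had 7.29, 3.66 and 17.2% in dTAG, against 5.98, 15.9 and 10.6% in DMSO. NIPBL itself had 2.30, 2.21 and 2.54% in dTAG, against 2.39, 2.54 and 2.28% in DMSO.

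Some high shares varied less than 2-fold with time. The highest group stood at 1.04 times the lowest for POTEJ and at 1.85 times for PPP3CC. The median share over the 8950 genes was 2.32% at 30 min and 3.85% at 60 min with dTAG, so variation under 2-fold does not by itself set a gene apart. Of the 40 protein-coding genes with the highest share in dTAG at 30 min, 24 varied less than 2-fold over the 10 groups of 0 to 120 min, among them the tubulin gene TUBA1A, whose reads may be shared with near-identical tubulin genes, with 17.1, 17.9 and 14.6% in dTAG, against 14.9, 18.3 and 17.8% in DMSO. Further, 404 genes with at least 10 converted reads in each library had over 50% of reads converted in all 6. Of these 267 matched a RefSeq symbol and 250 of those are pseudogenes, which may share reads with a near-identical copy. Together they held 3.93 to 5.5% of converted reads per library, and their values are uncertain.

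**Figure D4:**
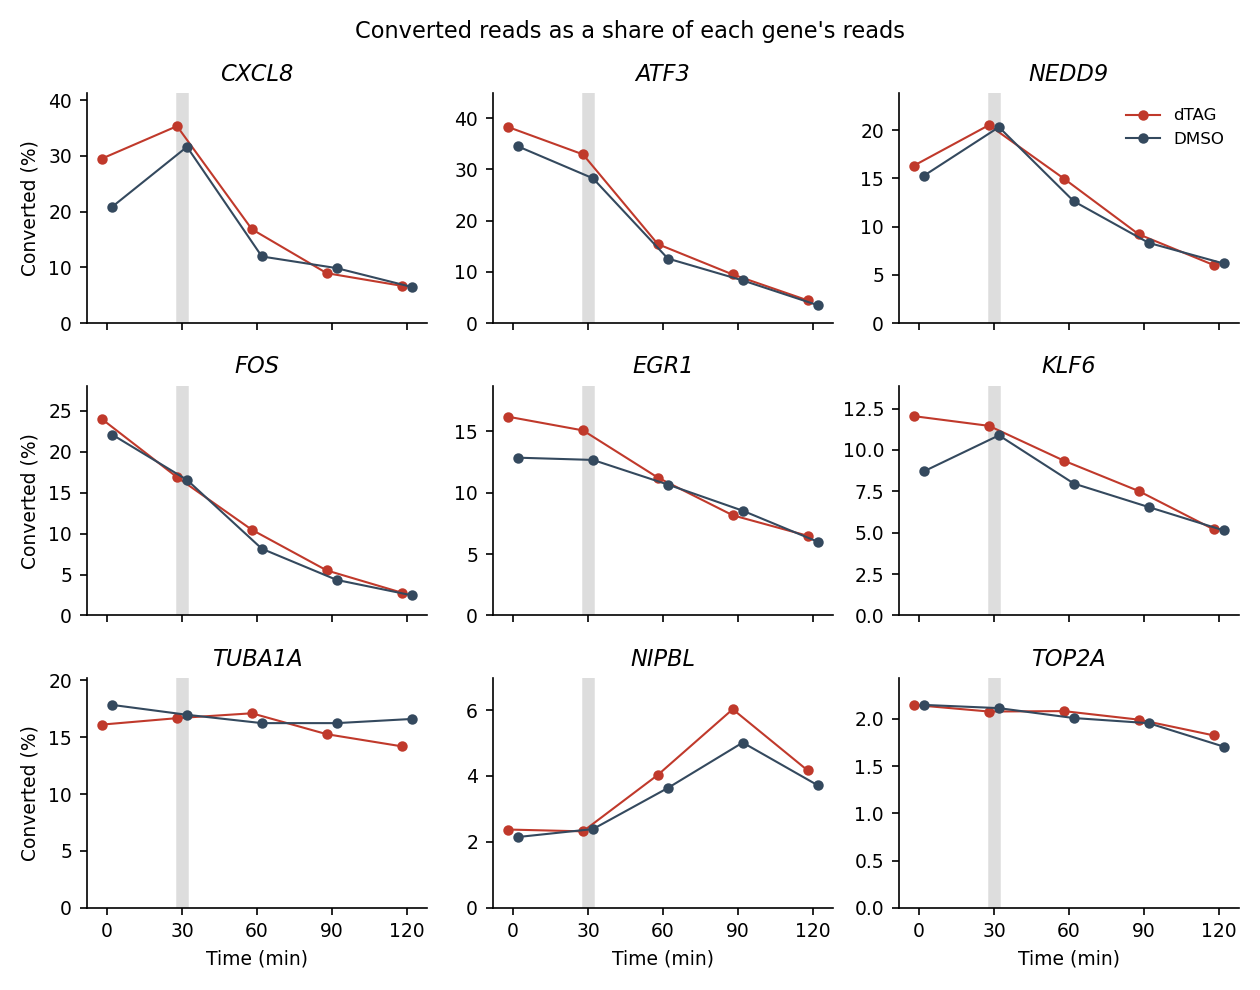
Converted reads as a percent of all reads of each gene, over the pooled libraries of each group, against time after release (dTAG red and to the left, DMSO dark; the grey bar marks 30 min). Shares of CXCL8, ATF3, NEDD9, FOS, EGR1 and KLF6 are higher at 0 and 30 min than at 120 min in both arms, TUBA1A varies less than 2-fold, and NIPBL and TOP2A lie lowest at 30 min.

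Since 0 of 14201 genes were called at 30 min, no gene called later in the same series was called then either. At 120 min 91 genes were lower (0.641%) and 47 higher (0.331%) in dTAG in edgeR's test at an adjusted p under 0.05, in libraries that the 30 min comparison does not share. Replicate 3 of the DMSO libraries of 120 min was the shallowest of its group, at 0.644 M converted reads against 1.53 to 2.03 M in the others, and its part in these calls was not tested. At 90 min 38 genes were lower (0.268%) and 13 higher (0.0915%). The 91 had a median difference of -0.22 at 30 min, against -1.29 at 120 min, and the 47 had 0.14, against 1.03 at 120 min.

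The test of the difference in drug effect, 30 min minus the mean of 90 and 120 min, called 6 genes higher (0.0423%) and 0 lower (0%), where higher means a drug effect at 30 min above the later one. AKAP12, a kinase-anchoring scaffold, had 227, 277 and 208 CPM in dTAG, against 296, 241 and 259 CPM in DMSO at 30 min. At 120 min AKAP12 averaged 248 CPM in dTAG and 1089 CPM in DMSO. Its drug effect was -0.16 ± 0.20 at 30 min and -2.14 at 120 min, and the contrast gave 1.97 ± 0.24 (log2, SE, edgeR adjusted p = 3.13e-05). VEGFA, the endothelial growth factor, had 39.7, 40.1 and 55.9 CPM in dTAG, against 45.7, 64.5 and 52.7 CPM in DMSO at 30 min, and averaged 71.7 CPM in dTAG and 419 CPM in DMSO at 120 min. Among the others were HIF1A, the hypoxia factor, STC1, a secreted glycoprotein, and SNAI2, a factor of epithelial-mesenchymal transition. At 30 min the mean was 350.3 CPM in dTAG against 408 CPM in DMSO for HIF1A and 129.9 CPM in dTAG against 141 CPM in DMSO for STC1, both with overlapping arms. SNAI2 had 2.24, 1.07 and 4.60 CPM in dTAG, against 2.08, 2.36 and 1.17 CPM in DMSO, too few reads to bound a change at 30 min, and its interval ran from -0.99 to 1.87 (log2). With converted reads set against all reads of each gene this contrast called 0 genes, with library sizes from all reads it called 1, and on all reads it called 3. With single replicates left out in turn it called 3 to 8. With both replicate 3 libraries of 30 min left out it called 3, AKAP12 and VEGFA among them.

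At 30 min more of these genes had an estimate in the later direction than of all tested genes, by a margin that varied with the setting. Of the 91 genes, 77 had a negative estimate (84.6%, against 50.1% of all tested genes), and 13 had dTAG values all under the DMSO values (14.3%, against 2.68%). Of the 47, 36 had a positive estimate (76.6%, against 49.9%), and 6 had dTAG values all above (12.8%, against 2.7%). The counts moved with single libraries and with the scale. For the 47 genes, 28 were positive without DMSO replicate 4 (59.6%, against 52% of all tested genes, median 0.05), 30 without dTAG replicate 3 (63.8%, against 49.1%) and 32 with both replicate 3 libraries left out (68.1%, against 49.7%). With converted reads set against all reads of each gene, 30 of the 47 were positive (63.8%, against 44.1%) and 65 of the 91 negative (71.4%, against 55.9%, median -0.08). Without 1 replicate at a time 68 to 77 of the 91 were negative. The median of the 91 was -0.17 at 0 min with 70 negative, -0.22 at 30 min and -0.24 at 60 min with 81 negative. In the release series at 30 min it was -0.13 with 72 negative. All reads, most of which are not converted, gave -0.11 at 30 min with 75 of 91 negative. Whether same-numbered libraries of different times share a culture is not stated, and its part in this was not tested. HAS2, which makes hyaluronan, had 3.92, 1.60 and 6.57 CPM in dTAG, against 9.15, 14.2 and 7.03 CPM in DMSO, a difference of -1.32 ± 0.60 (log2, SE). ELL2, an elongation factor, had 177, 194 and 197 CPM in dTAG, against 277, 229 and 217 CPM in DMSO. MICAL2, an actin-oxidising enzyme, had 208, 203 and 181 CPM in dTAG, against 255, 252 and 248 CPM in DMSO. The Notch ligand JAG1 had 25.2, 33.1 and 18.4 CPM in dTAG, against 41.2, 44.8 and 41 CPM in DMSO. None of these 4 passed at 30 min, where each had an edgeR adjusted p of 1. PTX3, a pattern recognition molecule called lower at 120 min, went the other way, with 32.4, 33.1 and 32.2 CPM in dTAG, against 25.4, 29.9 and 21.1 CPM in DMSO.

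**Figure D5:**
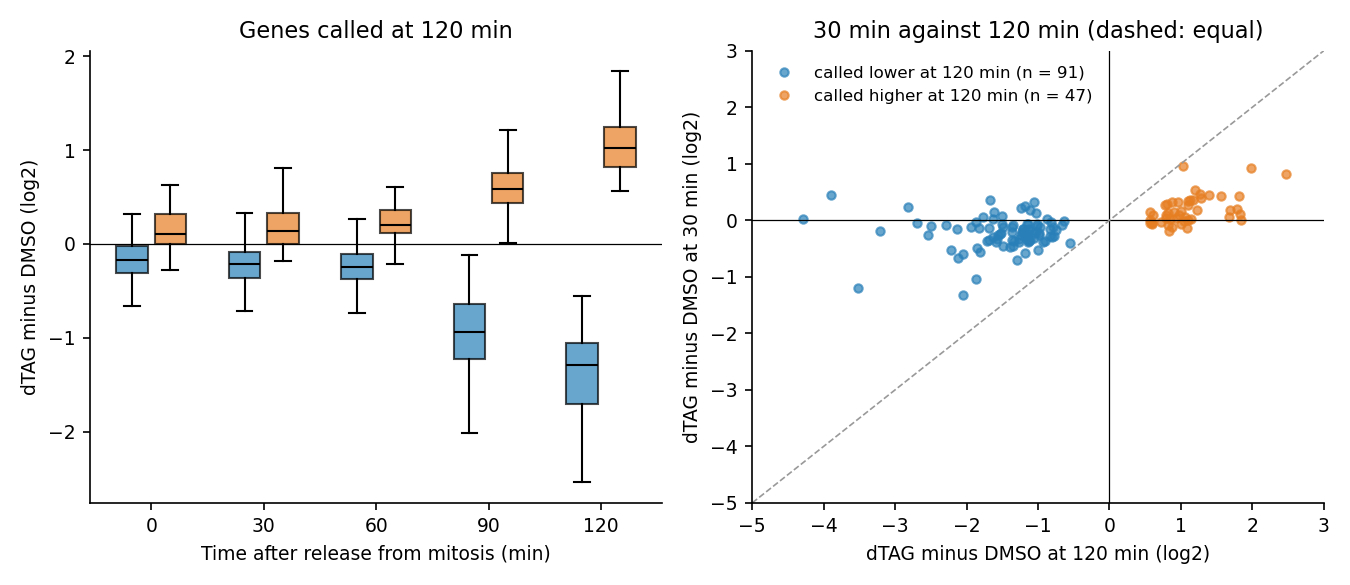
Left, dTAG minus DMSO (log2) at each time for the 91 genes called lower (blue) and the 47 called higher (orange) at 120 min; boxes span the quartiles, lines mark medians and whiskers reach the last value within 1.5 box lengths. Right, the same genes at 30 min against 120 min, where most points lie nearer to 0 on the y axis than the dashed line of equal effect.

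No change from 0 to 30 min passed the test in either arm. The step called 0 genes lower (0%) and 0 higher (0%) with dTAG, with 245 of 14201 at an unadjusted p under 0.05, and 0 lower (0%) and 0 higher (0%) with DMSO, with 498. Libraries of 30 and 0 min did not overlap for 169 genes lower (1.19%) and 152 higher (1.07%) at 30 min with dTAG, and for 468 lower (3.3%) and 485 higher (3.42%) with DMSO. The dTAG step set 3 libraries against 4, and the DMSO step 3 against 3. Smaller groups fall apart more often without any change, so these counts cannot be compared between the arms. These steps share the 30 min libraries with the drug comparison, and the difference between them was called for 0 genes lower (0%) and 0 higher (0%), with 216 at an unadjusted p under 0.05. The smallest p with dTAG was that of IDS, a lysosomal sulfatase, which averaged 86.7 CPM at 30 min and 36.1 CPM at 0 min with dTAG (1.24, log2, edgeR adjusted p = 0.692). Its dTAG values at 30 min were 135, 43.8 and 81.5 CPM, and leaving out dTAG replicate 2 brought its adjusted p to 0.0118.

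Giving the drug from the block or only from release made no detectable difference to its effect at 30 min. The contrast of both effects called 0 of 15130 genes lower (0%) and 0 higher (0%), with 257 at an unadjusted p under 0.05 and a smallest edgeR adjusted p of 0.758. Its median SE was 0.446 (log2), and 6196 of the 15130 genes had an interval inside 2-fold, so it left most genes unbounded. Replicate 3 of the release dTAG libraries held 0.419 M converted reads, the fewest of all libraries. Within the release series the drug comparison at 30 min also called 0 genes, and 300 reached an unadjusted p under 0.05. CERS2 differed by -0.37 there, S100A6 by 0.01 and FOS by -1.02 (log2).

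The median drug difference at 30 min was near 0 in each class of gene length. The median drug difference was 0.03 for genes under 10 kb, 0.01 for 10 to 30 kb, -0.01 for 30 to 100 kb and -0.02 for genes over 100 kb, over 2954, 3307, 4352 and 3588 genes. At 120 min the same classes stood at -0.26, -0.10, 0.05 and 0.31. These values include DMSO replicate 3 of 120 min, with 0.644 M converted reads, and its part in them was not tested. Genes over 100 kb had 2.68 ± 0.374% of reads converted in dTAG and 2.72 ± 0.192% in DMSO at 30 min (SD, n = 3 each), and 2.60 ± 0.319% in 4 dTAG libraries and 2.71 ± 0.501% in 3 DMSO libraries at 0 min. Genes under 10 kb had 4.68 ± 0.134% in dTAG and 4.64 ± 0.128% in DMSO at 30 min.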

How the data were processed

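The authors deposited raw counts per gene for each library, which per the file headers are reads with a T-to-C conversion, all reads, converted T and all T covered, and the conversion rate as a fraction of T covered. HISAT, Picard, HTSeq and hg38 are named in the submitters' processing notes, and versions are not given in the sources used here. No library without 4sU was used, so converted reads include errors and variants that were not measured. Whether reads were counted by strand is not stated.

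From these counts, 320 genes of 49186 (Y-linked genes and the X inactivation centre) were left out. Converted reads were tested with edgeR 4.0.16 (R 4.3.3): TMM scaling, filterByExpr with a minimum count of 10, quasi-likelihood fit over 36 libraries of the mitosis series at 0 to 120 min, Benjamini-Hochberg adjustment over 14201 genes and a threshold of 0.05. The comparison with the release series used 60 libraries and 15130 genes. The edgeR test was first checked on simulated data with the same dispersion for all genes and no replicate structure. The spread of the real libraries differs from this, so the check does not show how the test performs on them. SE is the difference over the root of F, and intervals are 95%. The share of converted reads was compared with an exact permutation test. Depth at 30 min was 1283315 to 2466720 converted reads, of 44291489 to 88893788 reads in all. Intervals cover the spread between libraries.

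Members and gene lists were chosen with earlier results of these data known. Named genes were the 10 of smallest p in each direction with mean log2 CPM of at least 3 and arms apart, up to 3 members of each list, the 10 genes with most converted reads, NIPBL and the members of the list of later drug-responsive genes, and names of clones were passed over. Genes described beside these were chosen after their values were seen. Alternatives were DESeq2 1.42.0, its size factors, no filter on low counts, other library sizes, all reads, converted reads relative to all reads, a replicate block, an added fold threshold and leaving out replicates. Promoter sequences are RefSeq's (GRCh38.p14). Some genes that met these rules are not reported here.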

Additional observations from a re-analysis of the deposited data

Results flagged for a closer look

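In SNAI2, VEGFA, AKAP12, HIF1A and STC1 the drug effect at 30 min differed from the mean of its effects at 90 and 120 min in edgeR's quasi-likelihood test of that difference. The difference (30 min minus later, log2) was 3.95 for SNAI2, 2.10 for VEGFA, 1.97 for AKAP12, 1.28 for HIF1A and 1.19 for STC1. In DMSO libraries at 120 min the number of converted T per converted read had 1 library, replicate 3, far from the other 3, at 1.55, among 24 group measures examined in this way, and chance alone marks about 1 in 20 groups. That library held 0.644 M converted reads, against 1.53 to 2.03 M in the other 3. Its 10 most abundant genes held 13.5% of its converted reads, against 3.44% to 3.75%, and mitochondrial transcripts held 1.91%, against 0.486% to 0.824%. It enters the 120 min values, and without it the test of 30 min against later times called 8 genes, against 6 with it, which does not test its part in the single genes' values.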

How the results depend on the processing

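The count of genes called for the drug effect at 30 min was 0 with DESeq2's own test, DESeq2's size factors, library sizes from all reads, all reads in place of converted reads, the 6 libraries alone, replicates 2 and 3 alone, the replicate block and each left-out replicate. With no filter on low counts 7 genes were called for the drug effect, 20 for the step with dTAG, 72 for the step with DMSO, 8 for the difference of the steps, 38 for 30 min against later times and 9 for mitosis against release. With converted reads relative to all reads 1 gene was called for the drug effect, 2 for the step with dTAG and 0 for 30 min against later times, which gave 1 with library sizes from all reads, 3 on all reads and 3 without both replicate 3 libraries, the last chosen after seeing the data. Leaving out single replicates gave 3 to 8 genes for 30 min against later times and 0 to 1 for the step with dTAG. The cause of these changes was not tested. Arms shared only replicate numbers 2 and 3, whose deviations from the group means correlated at 0.27 and 0.47 across genes, beside 0.28 for dTAG replicate 1 with DMSO replicate 2. With the replicate block 30 min against later times gave 9 genes in place of 6, and the other counts were 0. Of 365 values of single genes under alternatives other than single left-out replicates, 324 kept their direction and side of the threshold, 20 uncalled values changed sign, 19 lost and 2 gained significance, and 0 reversed. Most values, here and without single replicates, were of genes uncalled in the main fit, which had no call to lose. Of 318 values without single replicates 269 kept both, 19 changed sign, 30 lost and 0 gained significance, and the losses in both sets fell on the genes called for 30 min against later times, most often SNAI2. Depth limits the genes under a mean log2 CPM of 3, of which 4.69% had an interval inside 2-fold.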
